A study of Mus musculus with 8 samples.

Results

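The genes described here encode the machinery that transcribes and processes ribosomal RNA: RNA polymerase I (Pol I) and its cofactors, the small nucleolar ribonucleoproteins (snoRNPs) and the assembly factors of both ribosomal subunits. They are 35 gene symbols listed by name and role, not by a measured value, and all 35 were found among the 23469 gene symbols of both deposited tables. Ribosomes are built in the nucleolus. Pol I copies the repeated ribosomal DNA into a 45S precursor, which snoRNPs modify chemically and a succession of helicases, scaffold proteins and nucleases cut and fold into the subunits. Germinal centre B cells divide fast, and their growth after selection is tied to MYC, a transcription factor that raises many nucleolar genes.

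RNA was sequenced from germinal centre B cells of C57BL/6 mice, sorted as B220-positive, FAS-high and GL7-high 13 days after NP-KLH immunization. The libraries labelled Irf8 cKO came from Irf8flox/flox mice and the Ctrl libraries from Irf8+/+ mice, and both groups carried the same heterozygous Cre allele. Each of 2 experiments gave 1 Irf8 cKO and 1 Ctrl library. No label says how many animals a library held, their age, or whether the experiments used separate animals. The spread behind the p-values is that between these libraries, which may be technical. For the deposited values it was taken from a trend over genes by level, not from each gene's own values. Before library construction the RNA was amplified (Ovation RNA-Seq System v2), and the other 4 samples of the series, lipopolysaccharide-activated B cells, were not analysed here.

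Levels are RPKM, read counts divided by transcript length and by library size. The spacing of low values of small RNAs put the totals at 76.3 and 64.2 M (mega) reads in Irf8 cKO 1 and 2, and at 74.0 and 63.7 M in Ctrl 1 and 2, so 1 RPKM stood for 63.7 to 76.3 reads per kilobase. Irf8 itself measured 20.6 and 11.6 RPKM in the libraries labelled Irf8 cKO, against 14.5 and 14.9 in Ctrl 1 and 2. It was thus not lower in the library labelled Irf8 cKO 1. After the scaling of libraries described below it was lower in neither, at 19.31 and 16.98 in the libraries labelled Irf8 cKO, against 11.81 and 13.03 in Ctrl (log2 ratio 0.51 ± 0.17, SE; limma, adjusted p = 0.477). The value covers all exons, and the sources used here do not say which exons are floxed, so it checks no genotype label. All 11 germinal centre B cell markers were detected in every library and summed to 308.2 and 197.5 RPKM in the libraries labelled Irf8 cKO, against 444.8 and 368.1 RPKM in Ctrl. Of 8 T cell markers, 7 were in the tables; Cxcr5, which B cells also express, held nearly all of their sum, and 4 to 6 of them were at 0 in each library. Myeloid markers summed to 17.3 and 2.41 RPKM in the libraries labelled Irf8 cKO, against 65.4 and 7.95 RPKM in Ctrl, mostly as S100a8, S100a9 and Lyz2, with Cd14 at 0 in every library; their part in the results was not tested. In bulk RNA, fewer cells of a type and less RNA per cell cannot be told apart.

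The sequences below show what the snoRNP members act on and where they lie. Several members carry snoRNA genes in their own introns. By the deposited mm10 coordinates 9 snoRNA entries lay inside 5 members on the same strand (Ncl, Nop56, Nop58, Wdr43 and Gnl3), all 9 in introns of the GENCODE transcripts. Box C/D snoRNAs, which the Fbl, Nop56 and Nop58 proteins package, have a C box near the 5′ end and a D box near the 3′ end. Of the 5 box C/D entries with a GENCODE sequence, Snord70 and Snord19 had the D box but no TGATGA in its window, and 3 had both. Of these 3, the DNA sense sequence from GENCODE M21 transcripts (GRCm38) is given with TGATGA within the first 20 bases and CTGA within the last 20 in capitals, searched on the transcript strand only. For the box H/ACA snoRNA Snora75, the class that Dkc1, Nhp2, Gar1 and Nop10 package, the capitals mark ACA near the 3′ end.
Snord110, in an intron of Nop56 (chr2:130275506-130275573, plus strand): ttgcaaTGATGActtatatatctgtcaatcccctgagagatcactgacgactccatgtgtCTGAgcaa
Snord11, in an intron of Nop58 (chr1:59704790-59704873, plus strand): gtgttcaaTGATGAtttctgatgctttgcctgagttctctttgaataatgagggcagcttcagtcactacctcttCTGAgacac
Snord69, in an intron of Gnl3 (chr14:31014287-31014366, minus strand): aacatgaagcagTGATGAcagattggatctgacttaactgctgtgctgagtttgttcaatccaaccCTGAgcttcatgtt
Snora75, in an intron of Ncl (chr1:86351169-86351301, minus strand): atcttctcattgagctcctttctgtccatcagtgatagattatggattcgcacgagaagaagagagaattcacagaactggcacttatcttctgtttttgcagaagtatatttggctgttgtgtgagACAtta

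The E-box CACGTG, the motif that MYC and its partner MAX bind, was looked for in the 250 bases before each RefSeq start (GRCm38.p6); the motif is its own reverse complement, so the search covers both strands. It was present in 1 of the 29 members with a promoter sequence (3.45%), against 10.5% of 4874 tested genes and 6.86% of all 27025 genes of that table. The member was Nop2, which encodes a methyltransferase of the large-subunit rRNA. Its E-box begins 60 bases before the start and is shown in capitals in the stretch chr6:125131803-125131848, plus strand.
Nop2 promoter: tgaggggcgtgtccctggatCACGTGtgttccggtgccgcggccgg
Bases beyond the start were not searched, and a match is only a match of letters.

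Members spanned a wide range of levels. Npm1, the nucleolar chaperone nucleophosmin, measured 144.1 and 57.4 RPKM in the libraries labelled Irf8 cKO, against 139.5 and 112.1 RPKM in Ctrl 1 and 2. It ranked 13 among the 6446 tested genes by mean RPKM and held 54.4% and 44.0% of the summed level of all members in the libraries labelled Irf8 cKO, against 52.8% and 46.4% in Ctrl. Npm1 has many processed pseudogenes, and reads shared with them make its value uncertain. Ncl, the nucleolar RNA-binding protein nucleolin, followed at 20.8 and 12.7 RPKM in the libraries labelled Irf8 cKO and 17.3 and 22.6 RPKM in Ctrl. The other members were modest: the median over all 35 was 2.51 and 1.59 RPKM in the libraries labelled Irf8 cKO, against 2.56 and 2.82 RPKM in Ctrl, close to the medians of all tested genes (2.51 and 1.62 RPKM in the libraries labelled Irf8 cKO, against 2.95 and 2.68 RPKM in Ctrl). Between 26 and 31 members reached 1 RPKM in a library, the fewest in Irf8 cKO 2.

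**Figure D1:**
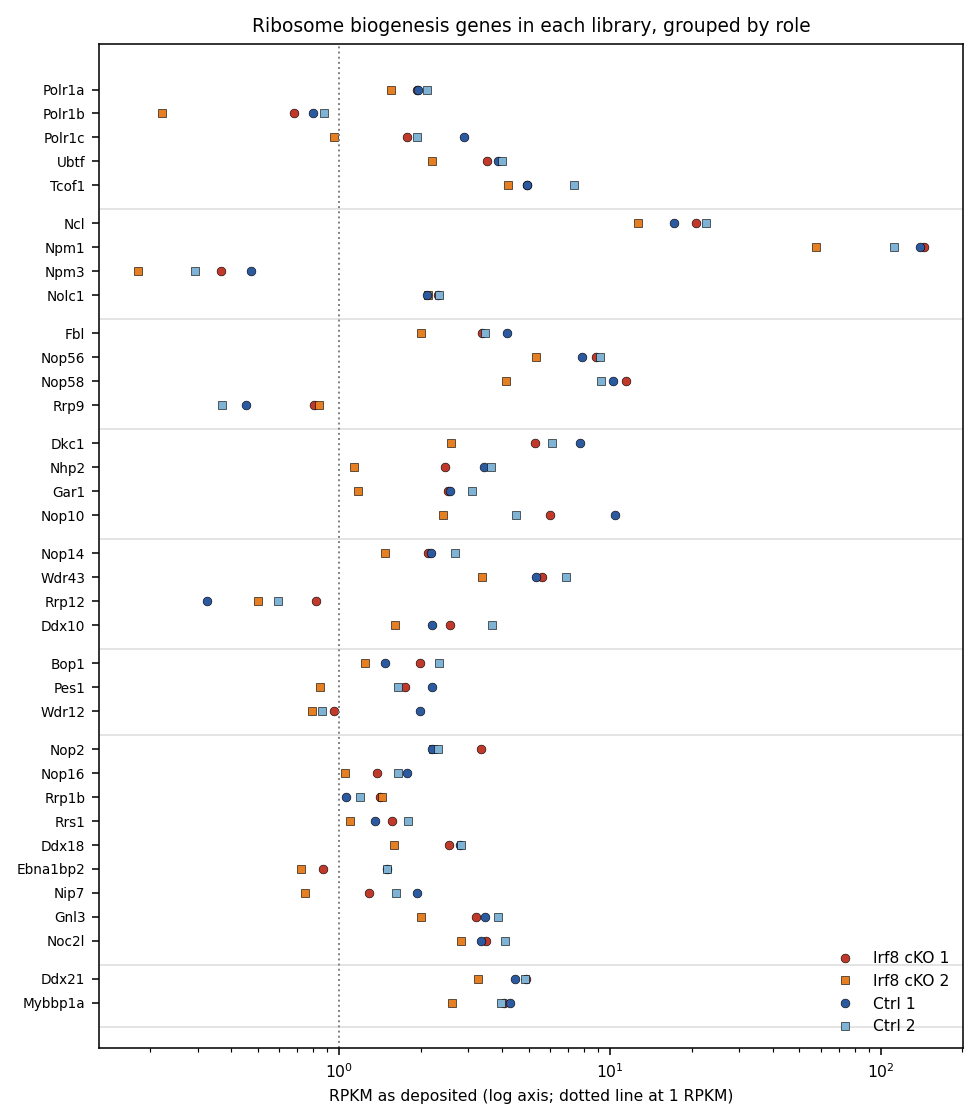
RPKM as deposited (log axis) of the 35 members in each of the 4 libraries, grouped by role; the dotted line marks 1 RPKM. The library labelled Irf8 cKO 2 is the lowest for 30 of the 35 members, and the library labelled Irf8 cKO 1 lies between the Ctrl libraries for 14. The median of all tested genes is also lowest in Irf8 cKO 2 (1.62 RPKM, against 2.51 to 2.95 RPKM in the other libraries).

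Genes were tested if they reached 1 RPKM in at least 2 libraries, which 30 members did. None of the 30 passed the test of Irf8 cKO against Ctrl in the deposited values (limma on log2(RPKM + 1), experiment as block, Benjamini-Hochberg threshold 0.05). Over all 6446 tested genes 1.09% were called lower and 0.0931% higher. At an unadjusted p under 0.05, limma gave 5 members, all below 0, against 18.8% of all tested genes. The smallest adjusted p of a member was 0.184, for Nhp2. Their median log2 ratio was -0.34, beside -0.35 over all tested genes, and 27 of 30 lay below 0, as did 5954 of the 6446.

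The whole table was shifted, so each ratio was also taken after median-of-ratios scaling, which sets the typical gene of each library equal. It moved the median of all tested genes from -0.35 to -0.04 on the log2 scale. Again no member passed, and 0% of all tested genes were called lower and 0% higher. At an unadjusted p under 0.05, limma then gave 3 members (Nhp2, Nop2 and Rrp1b) and 10.2% of all tested genes. The members' median was -0.01, with 16 of 30 below 0 and a range from -0.43 to 0.52. Of the 30, 11 had opposite signs on the deposited and scaled values. Without Irf8 cKO 1 and without the block, 6 of 30 members (20%) were called lower in the deposited values, where 22.5% of all tested genes were: Polr1c, Nop58, Dkc1, Nhp2, Gar1 and Nop10. After scaling that fit called 0 members.

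**Figure D2:**
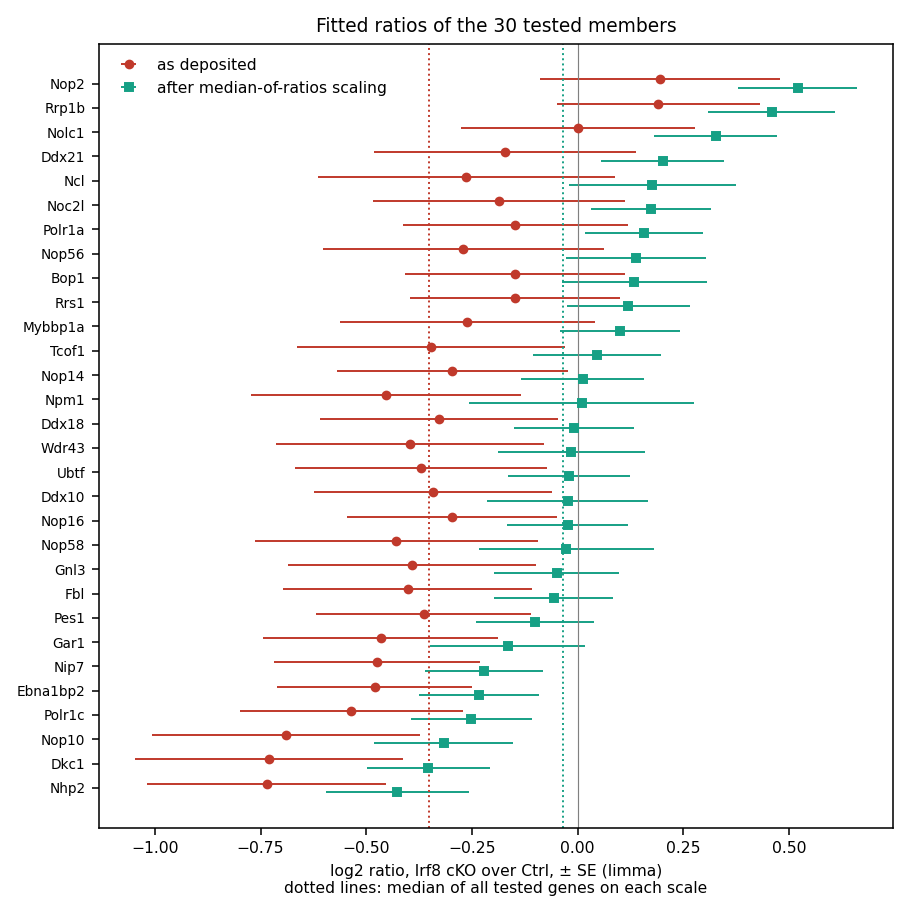
Fitted log2 ratio of Irf8 cKO over Ctrl with its SE (limma) for the 30 tested members, as deposited and after median-of-ratios scaling, ordered by the scaled ratio; dotted lines mark the median of all tested genes, -0.35 as deposited and -0.04 after scaling. Nop2, Rrp1b and Nolc1 stand at the upper end and Nhp2, Dkc1 and Nop10 at the lower end.

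The experiments gave different pictures. In experiment 1 the members' median log2 ratio was -0.01, with 14 of 30 above 0, where the median of all tested genes was -0.18 and 1645 of 6446 lay above 0. In experiment 2 it was -0.58, with 1 of 30 above 0, where the median of all tested genes was -0.51. Thus 13 of 30 members (43.3%) lay above 0 in experiment 1 and below 0 in experiment 2, against 22.8% of all tested genes. After scaling the members' medians were 0.12 and -0.09, with 21 of 30 above 0 in experiment 1 and 9 of 30 in experiment 2. Over all tested genes the scaled medians were -0.03 and -0.02, with 2872 and 3050 of 6446 above 0. The difference between the experiments was not tested, since each holds 1 library per group.

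**Figure D3:**
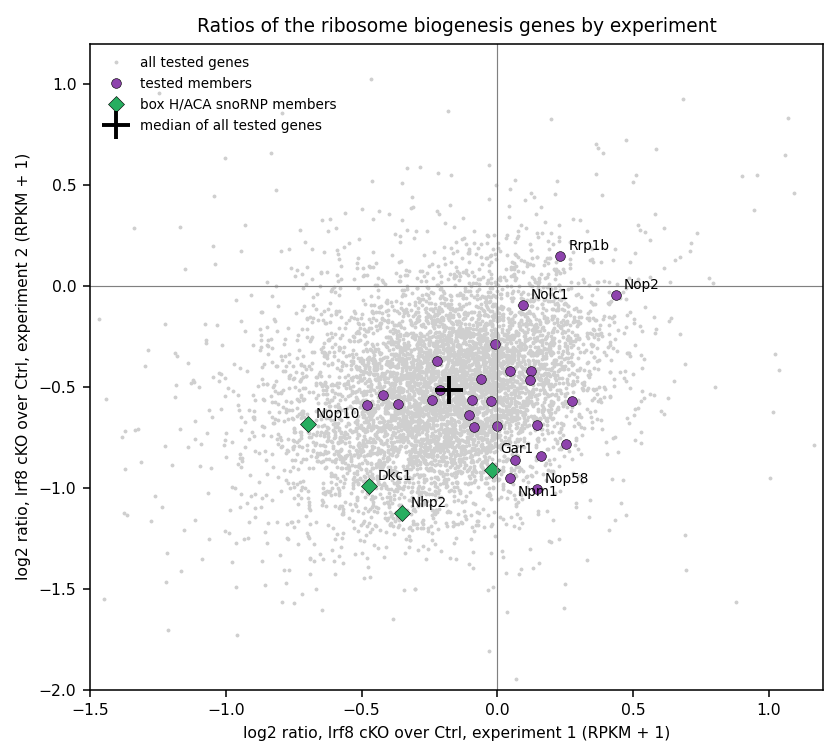
Log2 ratio of Irf8 cKO over Ctrl (RPKM + 1, as deposited) in experiment 1 (x axis) and experiment 2 (y axis) for all tested genes in grey and the 30 tested members in colour; 22 genes lie outside the axes. Members lie on both sides of 0 in experiment 1, and all but Rrp1b lie below 0 in experiment 2.

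Pol I transcription was represented by 5 members. Polr1a encodes the largest catalytic subunit and measured 1.93 and 1.56 RPKM in the libraries labelled Irf8 cKO, against 1.95 and 2.12 RPKM in Ctrl. Both Irf8 cKO values lay under both Ctrl values, though Irf8 cKO 1 and Ctrl 1 differed by less than the Ctrl libraries did from each other. The deposited values gave a log2 ratio of -0.15 ± 0.27 (SE; limma, adjusted p = 0.698) and the scaled values 0.16 ± 0.14 (adjusted p = 0.710), so the sign turned. Polr1c is a subunit that Pol I shares with Pol III. It measured 1.78 and 0.955 RPKM in the libraries labelled Irf8 cKO and 2.89 and 1.94 RPKM in Ctrl. Its groups did not overlap, and the log2 ratio came to -0.54 ± 0.26 in the deposited values (adjusted p = 0.253) and -0.25 ± 0.14 in the scaled ones (adjusted p = 0.580). Polr1b, the other large catalytic subunit, stayed under the filter at 0.684 and 0.222 RPKM in the libraries labelled Irf8 cKO and 0.799 and 0.875 RPKM in Ctrl.

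Ubtf, the upstream binding factor that opens ribosomal DNA for Pol I, measured 3.52 and 2.199 RPKM in the libraries labelled Irf8 cKO and 3.86 and 3.98 RPKM in Ctrl. The Irf8 cKO values lay below both Ctrl values as deposited and overlapped them after scaling, where the log2 ratio was -0.02 ± 0.14 (adjusted p = 0.972). Tcof1, which encodes the nucleolar scaffold treacle, measured 4.93 and 4.18 RPKM in the libraries labelled Irf8 cKO and 4.93 and 7.38 RPKM in Ctrl. The libraries of experiment 1 were equal to 3 digits, and in experiment 2 Irf8 cKO 2 lay below Ctrl 2.

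The 45S precursor that Pol I makes is represented by the Rn45s entry (NR_046233, chr17:39842997-39848829, plus strand, mm10), which spans 5833 bases. It measured 8589 and 16716 RPKM in the libraries labelled Irf8 cKO, against 9085 and 5887 RPKM in Ctrl 1 and 2. These are 5.01% and 9.75% of the reads in the libraries labelled Irf8 cKO, against 5.30% and 3.43% in Ctrl. As deposited the groups overlapped: Irf8 cKO 2 was highest, Ctrl 2 lowest, and the libraries of experiment 1 lay between. After scaling, both Irf8 cKO values (8035 and 24387) lay above both Ctrl values (7407 and 5150), as in 13% of all tested genes. The log2 ratio was -0.08 in experiment 1 and 1.51 in experiment 2 as deposited, and 0.12 and 2.24 after scaling. Fitted together, the deposited values gave 0.71 ± 0.11 (SE; limma, adjusted p = 3.9e-08) and the scaled values 1.18 ± 1.44 (adjusted p = 0.787). The deposited SE came from the trend of variance with level and did not carry the distance between the experiments. At a mean of 10069 RPKM the entry lay far above most genes, as Npm1, ranked 13, averaged 113.3 RPKM. Without the block the adjusted p was 0.512, and without Irf8 cKO 2 the log2 ratio was 0.23 (adjusted p = 1.000).

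**Figure D4:**
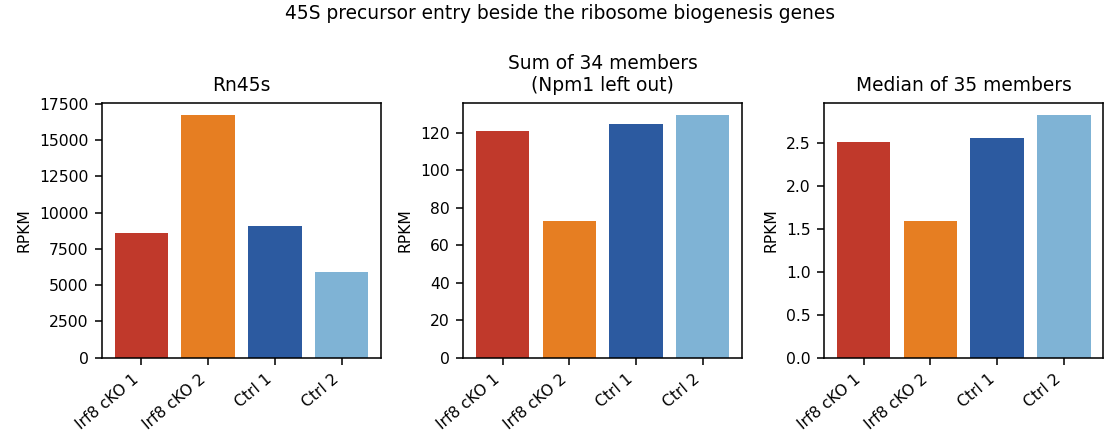
RPKM per library, as bars, of the Rn45s entry (left), of the sum of the 34 members other than Npm1 (middle) and of the median of all 35 members (right). The library labelled Irf8 cKO 2 has the highest Rn45s value (16716 RPKM) and the lowest member sum (73.1 RPKM). The median of all tested genes is also lowest in that library (1.62 RPKM).

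Set beside Rn45s, the deposited levels of the members had the opposite direction in experiment 2, as did those of most tested genes. In that experiment 96.7% of the tested members and 94.0% of all tested genes lay below 0 as deposited. Without Npm1 the members summed to 120.9 and 73.1 RPKM in the libraries labelled Irf8 cKO, against 124.9 and 129.5 RPKM in Ctrl. Irf8 cKO 2, the library with the most Rn45s, thus had the lowest sum as deposited. With Npm1 included it again had the lowest sum (130.6 RPKM, against 241.7 to 265.1 RPKM in the other libraries). By the members' median after scaling, Irf8 cKO 2 was not the lowest. That median was 2.35 and 2.31 in the libraries labelled Irf8 cKO, against 2.08 and 2.47 in Ctrl. Npm1 by itself was still lowest in Irf8 cKO 2 after scaling. It had 134.8 and 83.8 in the libraries labelled Irf8 cKO, against 113.7 and 98.1 in Ctrl. Sums were not compared after scaling. With all 35 members counted, Rn45s exceeded their sum by 32.4 and 128.0 times in the libraries labelled Irf8 cKO, against 34.4 and 24.4 times in Ctrl. With each library rescaled to its reads outside Rn45s, the members' median log2 ratio was -0.31, beside -0.34 as deposited; the part of Rn45s in the members' values was not tested further. The entry cannot separate precursor from mature rRNA, and Rn45s and the members' levels are shares of the same library. Fewer genes reached 1 RPKM in Irf8 cKO 2 (4845) than in the other libraries (6171 to 6566).

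Box C/D snoRNPs mostly guide 2′-O-methylation of rRNA. Nop58, a core protein, measured 11.4 and 4.13 RPKM in the libraries labelled Irf8 cKO, against 10.2 and 9.29 RPKM in Ctrl, and its partner Nop56 measured 8.85 and 5.33 RPKM in the libraries labelled Irf8 cKO, against 7.89 and 9.20 RPKM in Ctrl. For both genes Irf8 cKO 1 was above and Irf8 cKO 2 below the Ctrl libraries of their experiments. Their log2 ratios after scaling were -0.03 ± 0.21 and 0.14 ± 0.17 (SE; limma, adjusted p = 0.974 and 0.783). Fbl, the methyltransferase fibrillarin, measured 3.36 and 2.00 RPKM in the libraries labelled Irf8 cKO and 4.15 and 3.44 RPKM in Ctrl, with log2 ratios of -0.40 ± 0.30 on the deposited values (adjusted p = 0.376) and -0.06 on the scaled ones. Rrp9, a U3 snoRNP protein, stayed under the filter at 0.808 and 0.841 RPKM in the libraries labelled Irf8 cKO and 0.451 and 0.369 RPKM in Ctrl. Its Irf8 cKO values were above both Ctrl values on either scale. The authors' log2 ratio for Rrp9, which is not the ratio of these RPKM values, was 1.05 in experiment 1 and 1.91 in experiment 2. Each rests on 1 library against 1.

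Box H/ACA snoRNPs convert uridine to pseudouridine in rRNA, and their 4 proteins had the lowest median of the roles examined. Dkc1, the pseudouridine synthase dyskerin, measured 5.29 and 2.58 RPKM in the libraries labelled Irf8 cKO, against 7.72 and 6.11 RPKM in Ctrl. Nhp2, an RNA-binding core protein, measured 2.46 and 1.13 RPKM in the libraries labelled Irf8 cKO, against 3.41 and 3.64 RPKM in Ctrl. In both genes each Irf8 cKO value lay below each Ctrl value, as deposited and after scaling.

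Nop10, a small core protein, measured 6.02 and 2.42 RPKM in the libraries labelled Irf8 cKO and 10.4 and 4.49 RPKM in Ctrl. Its Irf8 cKO value was the lower within each experiment, while Irf8 cKO 1 exceeded Ctrl 2. Gar1, which has glycine- and arginine-rich ends, measured 2.51 and 1.18 RPKM in the libraries labelled Irf8 cKO, against 2.56 and 3.10 RPKM in Ctrl. The log2 ratios as deposited were -0.73 ± 0.32 for Dkc1, -0.74 ± 0.28 for Nhp2, -0.69 ± 0.32 for Nop10 and -0.47 ± 0.28 for Gar1 (SE; limma, adjusted p = 0.228, 0.184, 0.239 and 0.308). After scaling they were -0.35, -0.43, -0.32 and -0.17 (adjusted p = 0.494, 0.480, 0.556 and 0.765). The fitted ratios of all 4 stayed below 0 under each scaling tried. Of the 6446 tested genes, 5954 lay below 0 as deposited and 3619 after median-of-ratios scaling. After scaling, Gar1 was at 0.12 in experiment 1, and without Ctrl 1 Nop10 was at 0.15. Transcripts of these 4 genes ran from 1042 to 2804 bases, against a median of 2880 over tested genes. Across all tested genes with a known length (6383) the scaled ratio was higher for longer transcripts in experiment 1 (Spearman's rho 0.29) and hardly so in experiment 2 (rho 0.052). Across the 30 members rho was 0.41 and 0.27; genes of a library are not independent replicates. The part of length in the H/ACA values was not tested.

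None of the 3 tested nucleolar scaffold and chaperone genes passed the test. Npm1 had a log2 ratio of 0.05 in experiment 1 and -0.95 in experiment 2, or -0.45 ± 0.32 together (SE; limma, adjusted p = 0.359), with group means of 100.8 ± 61.3 RPKM in the libraries labelled Irf8 cKO and 125.8 ± 19.3 RPKM in Ctrl (SD, n = 2 each). Ncl also differed by experiment, at 0.25 and -0.78 (adjusted p = 0.600 together). Nolc1, which encodes the snoRNP chaperone Nopp140, measured 2.32 and 2.13 RPKM in the libraries labelled Irf8 cKO and 2.11 and 2.34 RPKM in Ctrl. The deposited log2 ratio was 0.00092, and the scaled one 0.33 ± 0.15 (adjusted p = 0.519). Npm3, a relative of Npm1, stayed under the filter, at 0.365 and 0.181 RPKM in the libraries labelled Irf8 cKO and 0.474 and 0.293 RPKM in Ctrl.

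Among factors of the small subunit, Wdr43, a protein of the early processome, measured 5.60 and 3.36 RPKM in the libraries labelled Irf8 cKO, against 5.32 and 6.90 RPKM in Ctrl. Ddx10, an RNA helicase, measured 2.57 and 1.60 RPKM in the libraries labelled Irf8 cKO, against 2.19 and 3.67 RPKM in Ctrl. Both were higher in the Irf8 cKO library of experiment 1 and lower in that of experiment 2, and neither passed the test. Nop14, which encodes another processome protein, ran from 1.48 to 2.13 RPKM in the libraries labelled Irf8 cKO and from 2.18 to 2.67 RPKM in Ctrl. Rrp12, a factor of subunit maturation and export known best from yeast, stayed under the filter. It measured 0.817 and 0.501 RPKM in the libraries labelled Irf8 cKO and 0.324 and 0.595 RPKM in Ctrl. The authors' log2 ratio for it was 1.54 in experiment 1 and 0.47 in experiment 2, each from 1 library against 1. Of the other members under the filter, Polr1b had authors' ratios of -0.02 and -1.26, Npm3 -0.17 and 0.03, and Wdr12 -0.91 and 0.53. These ratios are not those of the deposited RPKM. In experiment 2 they were above 0 for Rrp12, Npm3 and Wdr12, though Irf8 cKO 2 had the lower RPKM.

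Factors of the large subunit were the most varied. Bop1 and Pes1 of the PeBoW complex measured 1.99 and 1.25 RPKM (Bop1) and 1.76 and 0.851 RPKM (Pes1) in the libraries labelled Irf8 cKO, against 1.47 and 2.34 RPKM (Bop1) and 2.19 and 1.65 RPKM (Pes1) in Ctrl. Their groups overlapped. Wdr12, the remaining PeBoW protein, stayed under the filter, at 0.955 and 0.797 RPKM in the libraries labelled Irf8 cKO and 1.99 and 0.861 RPKM in Ctrl.

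Nop2 measured 3.33 and 2.22 RPKM in the libraries labelled Irf8 cKO, against 2.203 and 2.319 RPKM in Ctrl. The highest of the 4 values was that of Irf8 cKO 1, and the other 3 were close together. The fitted log2 ratio, 0.19 ± 0.28 on the deposited values (SE; limma, adjusted p = 0.630) and 0.52 ± 0.14 on the scaled values (adjusted p = 0.449), was the highest of the tested members on both scales. Rrp1b, a nucleolar protein of large-subunit assembly, measured 1.41 and 1.44 RPKM in the libraries labelled Irf8 cKO and 1.055 and 1.196 RPKM in Ctrl. It was the only tested member with both Irf8 cKO values above both Ctrl values as deposited, at a log2 ratio of 0.19 ± 0.24 (limma, adjusted p = 0.578), and the scaled ratio was 0.46 ± 0.15 (adjusted p = 0.477).

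Gnl3, the nucleolar GTPase nucleostemin, measured 3.19 and 2.00 RPKM in the libraries labelled Irf8 cKO and 3.45 and 3.86 RPKM in Ctrl. Noc2l measured 3.48 and 2.81 RPKM in the libraries labelled Irf8 cKO, against 3.33 and 4.10 RPKM in Ctrl. Ebna1bp2 and Nip7, assembly factors of the large subunit, had both Irf8 cKO values below both Ctrl values on either scale, with log2 ratios of -0.48 and -0.48 as deposited and -0.23 and -0.22 after scaling (limma, adjusted p = 0.249 and 0.267, and 0.595 and 0.605). Nop16, Rrs1 and Ddx18 had scaled log2 ratios of -0.02, 0.12 and -0.01. Ddx21, a helicase that acts at ribosomal DNA and on snoRNAs, measured 4.91 and 3.25 RPKM in the libraries labelled Irf8 cKO and 4.44 and 4.86 RPKM in Ctrl, and Mybbp1a, a nucleolar Myb-binding protein, 4.05 and 2.61 RPKM in the libraries labelled Irf8 cKO, against 4.26 and 3.97 RPKM in Ctrl. Their scaled log2 ratios were 0.20 ± 0.15 and 0.10 ± 0.14 (adjusted p = 0.647 and 0.818).

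In all, 13 of 30 tested members (43.3%) had both Irf8 cKO values below both Ctrl values as deposited and 1 (3.33%) had both above, where 44.7% and 1.19% of all tested genes did. After scaling it was 5 members (16.7%) below and 5 (16.7%) above, where 18.4% and 13% of all tested genes did. The 5 below were Polr1c, Dkc1, Nhp2, Ebna1bp2 and Nip7, and the 5 above Nolc1, Nop2, Rrp1b, Ddx21 and Mybbp1a. These shares are near those of all tested genes. Ebna1bp2, counted below on both scales, passed the filter through the Ctrl libraries only. With 2 libraries against 2, an exact permutation test of a single gene cannot give a two-sided p below 0.333.

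The snoRNAs inside members were sparse. At the estimated depth, the 9 entries summed to 49 and 19 reads in the libraries labelled Irf8 cKO, against 44 and 23 reads in Ctrl. Snord82, in an intron of Ncl, had 8 and 14 reads in the libraries labelled Irf8 cKO and 20 and 1 in Ctrl, and Snora75 of the same gene had 17 and 0 reads in the libraries labelled Irf8 cKO, against 16 and 9 in Ctrl. Snord110 of Nop56 and Snord11 of Nop58 had 4 and 6 reads in Irf8 cKO 1 and 0 in each of the other libraries. The 0 values allow up to 3 reads, by counting error alone. Whether a read came from a snoRNA or from unspliced RNA of its host cannot be told apart in these values.

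Genes of the same pathway outside the 35 members were read from 7 lists. Of 10 tested Pol I subunits and initiation factors 0 passed in either direction, as did 0 of 7 snoRNP assembly factors, 0 of 45 small-subunit factors, 0 of 43 large-subunit factors, 0 of 7 genes of the MYC network and 0 of 11 ribosomal DNA chromatin genes (limma, adjusted p). At an unadjusted p under 0.05 limma gave 3, 2, 1, 6, 0 and 0 genes, in the same order, where 18.8% of all tested genes passed. Of 17 tested exosome and nuclease genes 4 had an unadjusted p under 0.05, and Pop7 alone passed after adjustment, with a log2 ratio below 0. It encodes a protein shared by RNase P and the rRNA-cutting RNase MRP and measured 0.793 and 0.197 RPKM in the libraries labelled Irf8 cKO, against 1.53 and 1.61 RPKM in Ctrl. The deposited values gave it -0.81 ± 0.22 on the log2 scale (SE, adjusted p = 0.0278). The call was not made in the scaled values (-0.64 ± 0.18, adjusted p = 0.449). Pop7 reached 1 RPKM in the Ctrl libraries only, so it entered the test through Ctrl. As deposited, the limma adjusted p was 0.349 without the filter and 0.221 without the block.

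Myc measured 2.58 and 2.12 RPKM in the libraries labelled Irf8 cKO and 2.87 and 3.72 RPKM in Ctrl. Both Irf8 cKO values lay below both Ctrl values as deposited, with a log2 ratio of -0.35 ± 0.29 (SE; limma, adjusted p = 0.421), and the scaled log2 ratio was -0.01 ± 0.14 (adjusted p = 0.983). Max, the partner of MYC, measured 8.78 and 6.77 RPKM in the libraries labelled Irf8 cKO and 11.7 and 11.6 RPKM in Ctrl (scaled log2 ratio -0.11, adjusted p = 0.808). Polr1d is another subunit shared with Pol III. It measured 10.9 and 6.13 RPKM in the libraries labelled Irf8 cKO, against 18.7 and 11.3 RPKM in Ctrl. Its log2 ratios were -0.76 (deposited, limma adjusted p = 0.232) and -0.34 (scaled, limma adjusted p = 0.554). Ruvbl2, an ATPase of snoRNP assembly, measured 4.42 and 3.36 RPKM in the libraries labelled Irf8 cKO, against 6.75 and 8.07 RPKM in Ctrl, with -0.79 (deposited, adjusted p = 0.204) and -0.40 (scaled, adjusted p = 0.479).

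Of the remaining most abundant genes of their lists, the small-subunit methyltransferase Emg1 had 12.6 and 5.22 RPKM in the libraries labelled Irf8 cKO and 13.3 and 12.6 RPKM in Ctrl. Rrp1, a relative of Rrp1b, had 9.15 and 5.60 RPKM in the libraries labelled Irf8 cKO, against 9.32 and 12.7 RPKM in Ctrl. Dnmt1, the maintenance DNA methyltransferase, had 17.8 and 11.9 RPKM in the libraries labelled Irf8 cKO, against 15.4 and 18.3 RPKM in Ctrl. None of these passed. The list medians as deposited ran from -0.54 for snoRNP assembly (7 genes) to -0.27 for large-subunit factors (43 genes), around the -0.35 of all tested genes, and after scaling from -0.22 to 0.05.

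**Figure D5:**
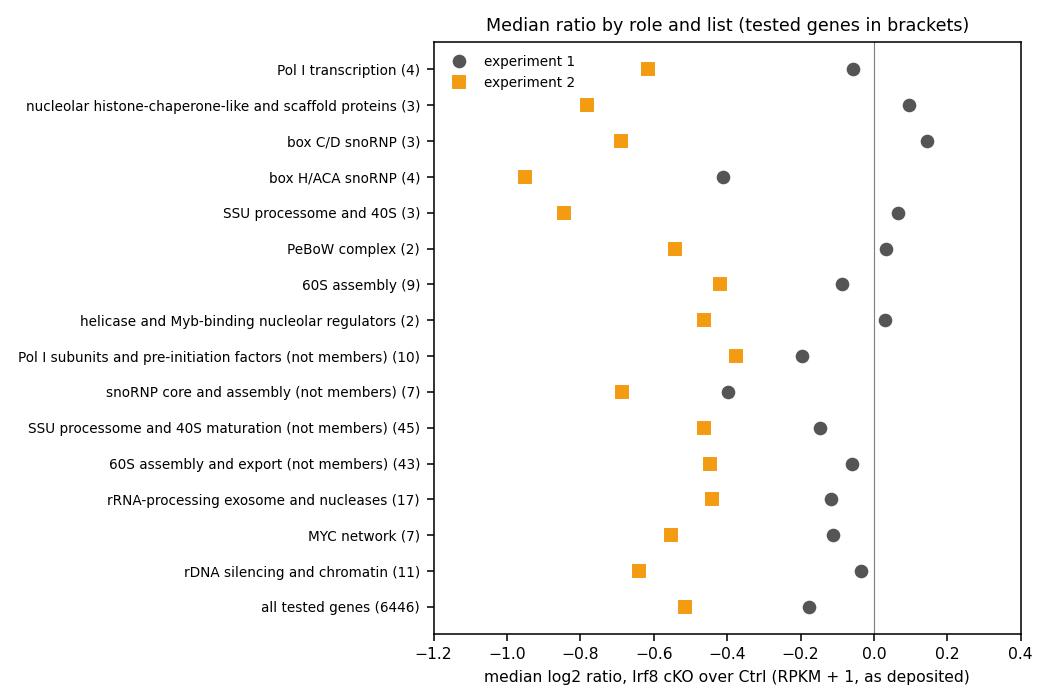
Median log2 ratio of Irf8 cKO over Ctrl (RPKM + 1, as deposited) in experiments 1 and 2 for each role of the members, each further pathway list and all tested genes, with the number of tested genes in brackets. Every median is lower in experiment 2, and the box H/ACA proteins stand lowest in both experiments (-0.41 and -0.95).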

How the data were processed

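For each experiment the authors deposited RPKM values of both libraries by RefSeq gene; the series design text names Wardrobe for their analysis, and no source used here names the aligner of these libraries. Per the submitters' processing notes, TopHat2 2.0, Cufflinks 2.2, Cuffdiff, DESeq, mm9 and mm10 were used, with no role given. The authors' log2 ratio and unadjusted p-value, per the file headers, come from 1 library against 1. The ratio differs from that of the deposited RPKM, in sign for some genes, and how it was scaled is not known here. The deposited coordinates are those of mm10.

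Of 23471 entries, those sharing a symbol (2 symbols) were summed. Read totals were those that made the low values of small single-exon RNAs whole within 0.1 reads, which held for 95% to 97.0% of them. Whole reads were not recovered for spliced genes, so no count model was run. Ratios were fitted with limma 3.58.1 in R 4.3.3 (eBayes with a variance trend, 2-sided) on log2(RPKM + 1), which understates changes of low genes, with the experiment as block and 1 residual degree of freedom. As deposited the prior degrees of freedom were infinite, so each SE came from the trend; after scaling they were 4.90. Median-of-ratios factors used the 11717 genes above 0 in every library. The experiment pairs libraries, as the labels number experiments and each has its table; the correlation of deviations within a number was 0.377 as deposited and 0.336 scaled. Transcript lengths came from GENCODE M21 by RefSeq accession (97.6% of genes). The fit was tested on simulated data only for changes larger than any fitted ratio of a member. Python 3.11.15, with pandas 2.3.3 and matplotlib 3.10.9, was used elsewhere.

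Members and lists were chosen with earlier results of these data known, so no test over a list was made. The genes named one by one were Rn45s, Polr1a, Polr1b, Polr1c, Ubtf, the 2 most abundant members of each role, the 3 lowest and 3 highest after scaling, each member under the filter, and of each further list any called gene, otherwise its most abundant, plus Myc. Others were named after their values were seen. Protein sequences were not used here. Alternatives covered scaling, pseudocount, filter, block and left-out libraries.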

Additional observations from a re-analysis of the deposited data

How the results depend on the processing

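No member was called under any setting but the fit of the deposited values without Irf8 cKO 1 and without the block. Left-out-library fits, all without the block, gave 0 to 6 members called lower, 0 to 1450 of all genes called lower (13 without Irf8 cKO 2 on either scale, and scaled 7 without Ctrl 1 and 10 without Ctrl 2) and 0 to 59 called higher, and 0 to 32 genes of the further lists called lower. They put the members' median between -0.58 and 0.075. For Rn45s they gave, deposited and scaled, 1.19 and 1.98 without Irf8 cKO 1, 0.23 and 0.38 without Irf8 cKO 2, 1.03 and 1.44 without Ctrl 1, and 0.40 and 0.92 without Ctrl 2, with adjusted p from 0.0589 to 1.000. Against 70 genes called lower and 6 higher in all, median-of-ratios scaling gave 0 and 0, also with a pseudocount of 0.1 or without the filter; taken over the tested genes, a choice made after seeing the data like that of scaling without the filter, it gave 3 and 1. Rescaling to reads outside Rn45s gave 168 lower, no filter 0 and 0, and a mean RPKM of 5 or more 17 and 0. Fits with no replicate block gave 19 lower and 2 higher, and after scaling 2 and 1. Of the further lists, Pop7 kept its call when rescaled to reads outside Rn45s (3 genes called) and without Irf8 cKO 1 (32 genes, 1 scaled); every other setting gave 0 genes. Rn45s passed as deposited at 0.71 and with a pseudocount of 0.1; it was 1.18 after scaling in each form run over all genes and 1.24 over the tested genes, 0.76 (adjusted p = 0.0502) outside Rn45s, and 0.71 with no pass under no filter, the mean filter and no replicate block. In experiment 1 alone it was -0.081. Signs of 11 of the 30 members turned with scaling, and 17 with scaling over the tested genes. The cause of these differences was not tested. Depth limits the lowest values: Npm3 in Irf8 cKO 2 rests on an estimated 10.3 reads, and the lowest tested member value on 75.8.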

Other observations

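The RNA components of the enzymes that Pop7 belongs to were looked at after their values were seen. Rmrp, the RNA of RNase MRP, measured 3.99 and 7.03 RPKM in the libraries labelled Irf8 cKO, against 14.04 and 1.146 RPKM in Ctrl. Rpph1, the RNA of RNase P, measured 39.04 and 52.07 RPKM in the libraries labelled Irf8 cKO, against 46.09 and 18.04 RPKM in Ctrl. Neither passed the test (limma, adjusted p = 0.729 and 0.291). As with Rn45s, Ctrl 2 was the lowest library for both RNAs, and within experiment 2 both were higher in the library labelled Irf8 cKO 2, by log2 ratios of 1.90 and 1.48. In experiment 1 the library labelled Irf8 cKO 1 was the lower for both, as it was for Rn45s as deposited. After scaling it was still the lower for both, and the higher for Rn45s (log2 ratio 0.12). All 119 snoRNA entries of the tables summed to an estimated 815.4 and 334.1 reads in the libraries labelled Irf8 cKO, against 830.6 and 690.6 reads in Ctrl, so they did not share the high value of Rn45s in Irf8 cKO 2.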
